A study of Homo sapiens with 12 samples.

Results

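The interferon-induced genes IFIT1, IFIT2, IFIT3, ISG15, MX1, OAS1, OAS2, OAS3 and IRF7 were followed through RNA sequencing libraries of HepaRG cells. They were taken by gene symbol from an expression table of 15822 loci, and 9 of 9 symbols had a row. HepaRG, established from a human liver tumour, can differentiate into cells like hepatocytes and cells like bile duct epithelium. The genotypes were wild type (WT) and a knockout (KO) of the constitutive androstane receptor (CAR), a nuclear receptor that controls drug metabolism genes. Cells of each genotype had received the solvent DMSO, the drug phenobarbital (PB), which activates CAR indirectly, or the synthetic CAR agonist CITCO. This gave 6 groups of 2 libraries, and no untreated cells and no cells given interferon are among the 12 samples. The labels do not say that duplicates were separate cultures, so the p-values below rest on a spread that may be purely technical. The sources used here give no doses, no exposure times, no means of disrupting CAR and no word on whether the KO cells are a single clone.

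Interferons are secreted proteins that warn cells of infection. Type I and type III interferons bind receptors that signal through the kinases JAK1 and TYK2 to transcription factors that, together with IRF9, bind the interferon-stimulated response element in the promoters of many genes. Hepatocytes use this programme against hepatitis viruses, and many of its genes are also transcribed at a low level without any added interferon. The OAS enzymes make 2-5A, an oligonucleotide that activates RNase L, IFIT proteins bind foreign RNA, MX1 is a GTPase that blocks viral nucleoproteins, ISG15 is a ubiquitin-like modifier, and IRF7 is the transcription factor that amplifies type I interferon production.

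The response element is built from GAAA blocks, and it is shown here because it is what these promoters have in common. RefSeq promoters (GRCh38.p14, 250 bases before to 50 after the start site) were at hand for 6 of the 9 genes, IFIT1, IFIT3, ISG15, MX1, OAS1 and OAS3. The forms searched on both strands were GAAANNGAAA, which reads TTTCNNTTTC on the other strand, and GAAANGAAA, which reads TTTCNTTTC. The stretches below run 5′ to 3′ on the strand of the gene, with matches in capitals (matches may overlap each other).
IFIT1, chr10:89392487-89392549, plus strand: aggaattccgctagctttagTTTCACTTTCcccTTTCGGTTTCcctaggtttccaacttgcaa
IFIT3, chr10:89332415-89332512, plus strand: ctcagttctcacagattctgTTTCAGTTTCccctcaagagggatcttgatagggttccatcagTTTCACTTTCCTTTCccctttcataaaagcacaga
ISG15, chr1:1013364-1013419, plus strand: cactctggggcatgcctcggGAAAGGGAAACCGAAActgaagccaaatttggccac
MX1, chr21:41420519-41420587, plus strand: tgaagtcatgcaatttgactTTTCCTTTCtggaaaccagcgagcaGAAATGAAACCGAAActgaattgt
OAS1, chr12:112906925-112906973, plus strand: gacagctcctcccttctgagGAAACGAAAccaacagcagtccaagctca
OAS3, chr12:112938306-112938491, plus strand: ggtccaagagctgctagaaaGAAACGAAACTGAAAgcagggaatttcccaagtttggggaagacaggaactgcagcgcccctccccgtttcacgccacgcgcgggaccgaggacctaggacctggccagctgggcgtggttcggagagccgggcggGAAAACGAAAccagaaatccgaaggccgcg

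All 6 genes held at least 1 match, and OAS1 held only the form with a 1-base spacer. Of 35116 RefSeq promoters of the same length, 3.57% held the form with a 2-base spacer, 3.12% the form with a 1-base spacer and 6.40% either. Counted by gene, as for the 6 here, 7.83% of 27305 genes held either form in any promoter. The 6 genes had 9 promoters, and the one with most matches is printed. A match describes letters only and was not tied to binding in these cells.

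**Figure D1:**
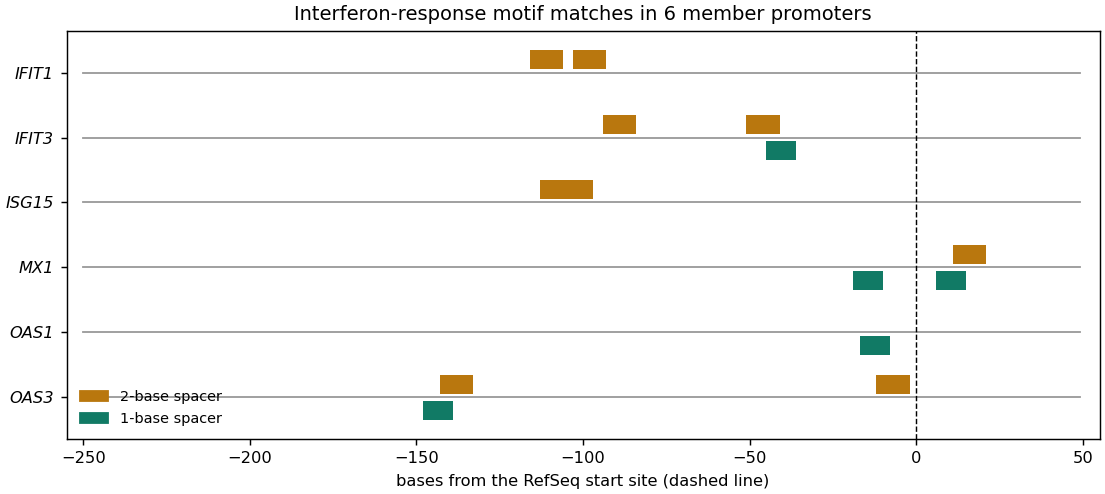
Matches of the 2 motif forms (bars) along the promoters of 6 genes, in bases from the start site. In the promoters drawn, ISG15 and IFIT1 hold theirs between 116 and 94 bases before the start, whereas OAS1 and MX1 hold theirs within 20 bases of it. Other promoters of MX1, not drawn, hold matches further from the start.

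Levels are the deposited normalized read counts scaled by library size (CPM, with reads counted per 1e6), and differences are on the log2(CPM + 0.5) scale with limma's standard error (SE) and Benjamini-Hochberg adjusted p over 15792 tested loci. A gene was called at an adjusted p under 0.05. Libraries held between 49.3 and 66.5 times 1e6 reads in loci, and a member had between 104 (IRF7) and 3214 (OAS3) reads per library. All 9 members were above the filter on low values, 1 CPM in 2 libraries. Under the deposited scaling the median locus differed little between genotypes (KO minus WT, log2 -0.0032 under DMSO), whereas scaling each library to its own total moved it to 0.247 under DMSO, 0.239 under PB and 0.233 under CITCO. That scaling called 52.5% of loci higher and 14.6% lower in KO cells under DMSO, 51.6% and 15.1% under PB, and 51.2% and 15.9% under CITCO. Genotype differences below are therefore relative to the median locus.

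The labels were first set against the targeted gene. NR1I3, the gene of CAR, had 9.33 to 15.5 CPM in WT and 9.63 to 16.2 CPM in KO libraries, and no KO against WT comparison called it (adjusted p 0.273, 0.523 and 0.388 under DMSO, PB and CITCO). A deletion or frameshift need not lower the RNA, so this neither checks nor contradicts the genotype labels. Summed hepatocyte markers (7 of 8 analysed here) ranged from 140310 to 157910 CPM in WT and from 58033 to 61055 CPM in KO libraries. Biliary markers (4 of 7) ranged from 377 to 467 in WT and from 104 to 121 in KO libraries, mesenchymal markers (6 of 9) from 120 to 138 and from 245 to 264, endothelial markers (3 of 5) from 82.2 to 115 and from 65.8 to 93.1, and proliferation markers (5 of 5) from 140 to 195 and from 379 to 484. Of 9 leukocyte markers, only CD14 is analysed here, at 3.70 to 7.84 CPM in WT and 6.05 to 18.8 CPM in KO libraries, with the highest values under PB. Single markers did not all follow these sums. ALB made up most of the hepatocyte sum, while FGB was higher in KO libraries (3434 to 3688 against 2550 to 3020 CPM) and TTR overlapped. KRT19 made up most of the biliary sum, while KRT7 and SPP1 were higher in KO libraries. DCN and ACTA2 were higher in KO libraries, while COL1A1, COL3A1 and POSTN overlapped. The part of these cell types in the genotype differences below was not tested, and fewer cells of a type cannot be told apart from less RNA per cell.

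The first question was how the uninduced level of these genes differed between genotypes. In KO cells the OAS genes were higher and IFIT1, IFIT2, MX1 and IRF7 lower than in WT cells under DMSO. That made 3 members higher and 4 lower of 9, beside 28.3% of all tested loci called higher and 29.4% lower. Under PB, 2 members were higher and 5 lower, beside 29.4% and 28.9% of all loci. Under CITCO, 3 were higher and 5 lower, beside 29.3% and 29.8%. With each library scaled to its own total the split was 3 higher and 3 lower under DMSO, 3 and 3 under PB, and 3 and 2 under CITCO. The shares of all loci with that scaling were 52.5% and 14.6% under DMSO, 51.6% and 15.1% under PB, and 51.2% and 15.9% under CITCO. Members did not move in 1 direction: log2 differences under DMSO ran from -0.98 (IFIT1) to 1.12 (OAS2), with a median of -0.25 beside -0.0032 for all loci.

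**Figure D2:**
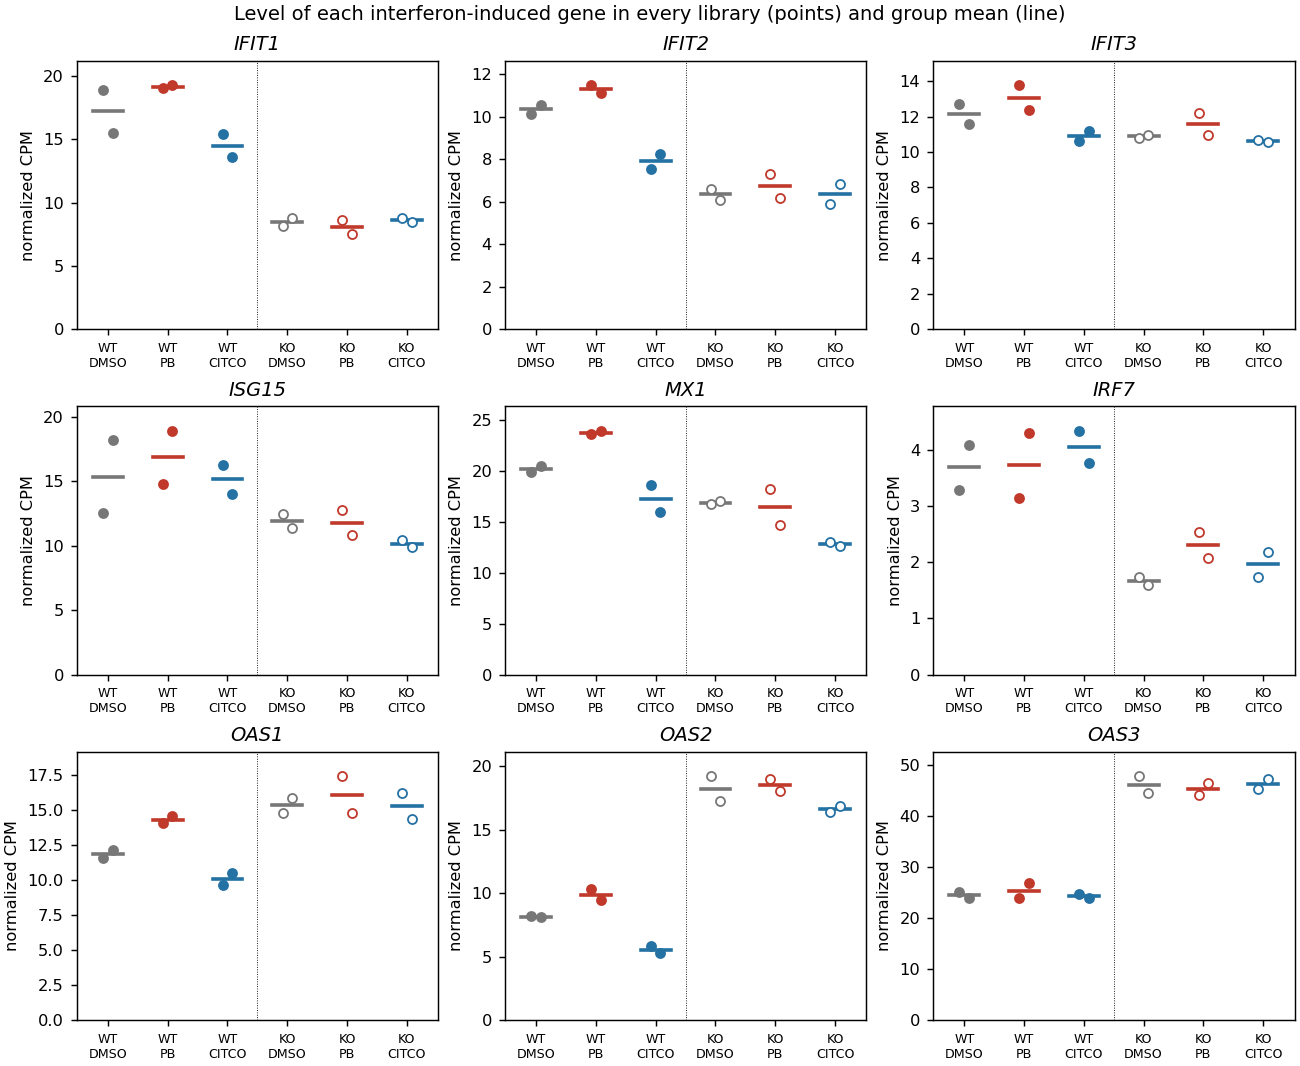
Normalized CPM of each gene (vertical axis, from 0) in the 12 libraries, with filled points for WT and open points for KO cells, and a line at each group mean. OAS2 and OAS3 lie higher in every KO library than in every WT library, and IFIT1, IFIT2 and IRF7 lie lower. Among all tested loci, 24.6% lie higher and 24.7% lower in the same way.

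OAS2 makes 2-5A chains from ATP upon binding double-stranded RNA and lies with OAS1 and OAS3 in 1 cluster on chromosome 12 (GRCh38, GENCODE v29: OAS1 at 112906777 to 112933222, OAS3 at 112938352 to 112973249, OAS2 at 112978395 to 113011723, all on the plus strand). OAS2 had 8.16 and 8.10 CPM in WT cells under DMSO, 10.3 and 9.45 under PB, and 5.82 and 5.28 under CITCO. In KO cells it had 19.2 and 17.2 CPM under DMSO, 19.0 and 18.0 under PB, and 16.4 and 16.8 under CITCO. No KO library came within the WT range, and the WT groups did not overlap each other. OAS2 was 2.17-fold higher in KO cells under DMSO (log2 1.12, SE 0.09, limma adjusted p 7.51e-09), 1.83-fold under PB and 2.84-fold under CITCO.

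OAS3, which holds several OAS units in 1 chain and is the main activator of RNase L in human cells, was the most abundant member in CPM. It had 25.0 and 23.9 CPM in WT cells under DMSO, 23.9 and 26.8 under PB, and 24.7 and 24.0 under CITCO. KO cells had 47.8 and 44.5 CPM under DMSO, 44.1 and 46.5 under PB, and 45.3 and 47.1 under CITCO. Each KO library was thus well above each WT library, and within a genotype the 3 treatments overlapped. The difference was 1.87-fold under DMSO (log2 0.90, SE 0.07, limma adjusted p 2.09e-09), 1.77-fold under PB and 1.88-fold under CITCO.

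OAS1, the smallest enzyme of the family, had 11.6 and 12.2 CPM in WT cells under DMSO, 14.0 and 14.5 under PB, and 9.64 and 10.5 under CITCO. KO cells had 14.8 and 15.9 CPM under DMSO, 17.4 and 14.8 under PB, and 16.2 and 14.3 under CITCO. The highest WT library, under PB, lay above the lowest KO library, under CITCO. OAS1 was 1.28-fold higher in KO cells under DMSO (adjusted p 0.00412) and 1.49-fold under CITCO (adjusted p 5.09e-05). Under PB the log2 difference was 0.16 with a 95% interval from -0.04 to 0.36 (adjusted p 0.154), and scaling to library totals turned it into a call (log2 0.41, adjusted p 0.00135). All 3 OAS genes kept their direction under that scaling.

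The IFIT genes lie in a cluster on chromosome 10 (GRCh38, GENCODE v29: IFIT2 at 89283694 to 89309276, IFIT3 at 89327894 to 89340971, IFIT1 at 89392546 to 89406486). IFIT1B, which is not analysed here, lies between IFIT3 and IFIT1. IFIT1 binds viral RNA whose cap lacks methylation. It had 18.9 and 15.5 CPM in WT cells under DMSO, 19.1 and 19.3 under PB, and 15.4 and 13.6 under CITCO. KO cells had 8.16 and 8.77 CPM under DMSO, 8.65 and 7.49 under PB, and 8.83 and 8.51 under CITCO. The genotypes did not overlap, and the KO groups overlapped each other. IFIT1 was 1.97-fold lower in KO cells under DMSO (log2 -0.98, SE 0.11, limma adjusted p 2.80e-07), 2.30-fold under PB and 1.63-fold under CITCO.

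IFIT2, which partners IFIT1 and IFIT3 in one complex, had 10.1 and 10.6 CPM in WT cells under DMSO, 11.5 and 11.1 under PB, and 7.55 and 8.27 under CITCO. KO cells had 6.61 and 6.11 CPM under DMSO, 7.32 and 6.16 under PB, and 5.90 and 6.84 under CITCO. All KO libraries were below all WT libraries, closest under CITCO. The gene was 1.58-fold lower in KO cells under DMSO (adjusted p 5.33e-05) and 1.63-fold lower under PB (adjusted p 2.43e-05). Under CITCO it was 1.23-fold lower (adjusted p 0.0298), a call that was lost with library totals (log2 -0.06, adjusted p 0.662), without WT CITCO replicate 2 (adjusted p 0.175) and without KO CITCO replicate 1 (adjusted p 0.237).

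IFIT3, which stabilises IFIT1 on its RNA, had 12.7 and 11.6 CPM in WT cells under DMSO, 13.8 and 12.4 under PB, and 10.6 and 11.2 under CITCO, against 10.8 and 11.0, 12.2 and 10.9, and 10.7 and 10.6 CPM in KO cells. The log2 KO minus WT differences of -0.15, -0.17 and -0.04 under DMSO, PB and CITCO were not called (adjusted p 0.170, 0.129 and 0.753), and with library totals they were 0.10, 0.07 and 0.20. The 95% interval under DMSO, from -0.35 to 0.04, did not reach the value of IFIT1. IFIT5, the next gene after IFIT1 and itself an RNA-binding member of the family, was higher in KO cells (20.9 against 14.2 CPM under DMSO, log2 0.54, adjusted p 8.43e-06). LIPA, a lysosomal lipase gene, runs on the opposite strand across IFIT1, IFIT2 and IFIT3 and shares exon sequence with IFIT2. Under DMSO its mean was 103 CPM in WT against 123 CPM in KO libraries (log2 0.26, adjusted p 7.98e-05), and no drug comparison called it. The sources used here do not say whether counting used strand, so reads of LIPA and IFIT2 in the shared stretch cannot be told apart.

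MX1 lies on chromosome 21 (GRCh38, GENCODE v29: 41420304 to 41459214). Antisense genes share exon sequence with MX1 and with OAS1, and reads of the partners there cannot be told apart. MX1 had 19.9 and 20.5 CPM in WT cells under DMSO, 23.6 and 24.0 under PB, and 18.6 and 16.0 under CITCO. KO cells had 16.8 and 17.0 CPM under DMSO, 18.2 and 14.7 under PB, and 13.0 and 12.6 under CITCO. Within each treatment KO lay below WT, but the genotypes overlapped across treatments. The gene was 1.44-fold lower in KO cells under PB (adjusted p 0.000109) and 1.33-fold lower under CITCO (adjusted p 0.00105), where the call was lost with library totals (log2 -0.17, adjusted p 0.131). Under DMSO it was 1.19-fold lower (adjusted p 0.0306). That call was lost without any single library of either DMSO group (adjusted p 0.0537 and 0.0994 without WT replicate 1 or 2, 0.108 and 0.0839 without KO replicate 1 or 2), and with library totals the log2 difference was 0.01. MX2, the neighbouring gene and a relative of MX1, was at 1.65 CPM in KO against 1.17 CPM in WT under DMSO (adjusted p 0.0960), and TMPRSS2, the coding gene after it, was at 20.9 CPM in KO against 22.6 CPM in WT (adjusted p 0.297).

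ISG15 lies on chromosome 1 (GRCh38, GENCODE v29: 1001138 to 1014540) and is conjugated to other proteins during the response. It had 12.5 and 18.2 CPM in WT cells under DMSO, 14.8 and 18.9 under PB, and 16.3 and 14.0 under CITCO. KO cells had 12.5 and 11.4 CPM under DMSO, 12.8 and 10.8 under PB, and 10.4 and 9.92 under CITCO. WT duplicates were far apart under DMSO and PB, replicate 2 being the higher. ISG15 was 1.41-fold lower in KO cells under PB (adjusted p 0.00676) and 1.46-fold lower under CITCO (adjusted p 0.00303), and neither was called with library totals (adjusted p 0.140 and 0.0710). The PB call was also lost without WT PB replicate 2 (adjusted p 0.101) or KO PB replicate 2 (adjusted p 0.0895). Under DMSO the log2 difference was -0.33 (adjusted p 0.0566). It was called without WT DMSO replicate 1 (log2 -0.59, adjusted p 0.00107) and, at the same log2 value with another estimate of the spread, without WT PB replicate 1 or 2 (adjusted p 0.0364 and 0.0365). The authors' deposited table lists it at log2 -0.36 (FDR 0.0385).

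IRF7 lies on the minus strand of chromosome 11 (GRCh38, GENCODE v29: 612553 to 615999) and was the least abundant member in CPM. It had 3.28 and 4.09 CPM in WT cells under DMSO, 3.13 and 4.30 under PB, and 4.33 and 3.77 under CITCO. KO cells had 1.74 and 1.59 CPM under DMSO, 2.53 and 2.08 under PB, and 1.73 and 2.19 under CITCO. Each KO library was below each WT library. The gene was 1.92-fold lower in KO cells under DMSO (adjusted p 9.42e-05), 1.49-fold under PB (adjusted p 0.00626) and 1.86-fold under CITCO (adjusted p 0.000165). The PB call was lost with library totals (adjusted p 0.0648), without WT PB replicate 2 (adjusted p 0.109) and without KO PB replicate 2 (adjusted p 0.0749). PHRF1, the gene beside IRF7, was also lower in KO cells (55.3 against 70.8 CPM under DMSO, adjusted p 0.000319).

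ISG15 and IRF7 are the most GC-rich members, with 63.4% and 66.8% GC in the longest coding transcript. Replicate 2 exceeded replicate 1 by a median log2 of 0.19 in WT DMSO and 0.19 in WT PB cells for loci of at least 61.7% GC, the top decile. For the lowest decile (at most 38.6% GC) the medians were -0.09 and -0.11. The same differences were 0.52 and 0.34 for ISG15, and 0.28 and 0.40 for IRF7. The part of GC content in their genotype differences was not tested.

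**Figure D3:**
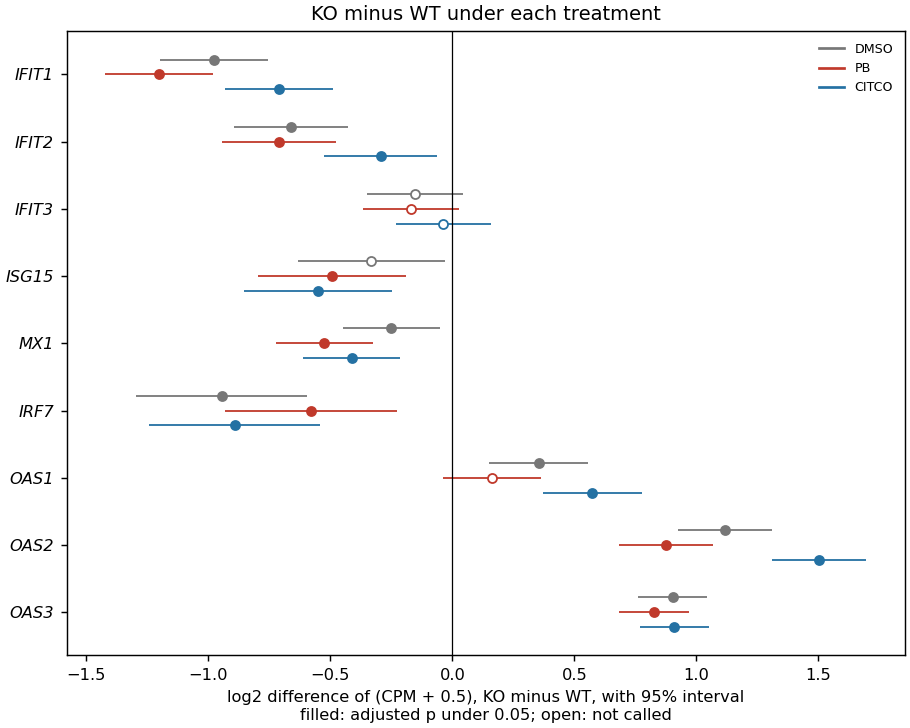
KO minus WT log2 difference of each gene under each treatment (points) with its 95% interval (lines), where filled points were called. The OAS genes lie above 0 and the other genes below 0 under all 3 treatments. IFIT3 is not called under any, OAS1 not under PB and ISG15 not under DMSO.

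Compared over all treatments at once, the 6 KO libraries did not overlap the 6 WT libraries for OAS2 and OAS3 (KO higher) and for IFIT1, IFIT2 and IRF7 (KO lower). Among all tested loci, 24.6% had all KO libraries higher and 24.7% all lower. IFIT3, ISG15, MX1 and OAS1 overlapped. Per kilobase of the longest coding transcript, ISG15 had the highest level in WT DMSO cells (19.5 CPM per kb), followed by MX1 (5.82), OAS1 (4.92), IFIT3 (4.87), IFIT1 (3.73), OAS3 (3.64), IFIT2 (2.79), IRF7 (1.80) and OAS2 (1.72). In KO DMSO cells ISG15 was again highest (15.1 CPM per kb), followed by OAS3 (6.87) and OAS1 (6.34), and IRF7 was lowest (0.812). The order depends on the length used. All exons of a gene combined come to 8616 bases for MX1, against 3470 in its longest coding transcript, and to 4947 against 2416 for OAS1. With the combined length both would rank lower among the members in WT DMSO cells.

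The next question was whether PB or CITCO changed these genes in WT cells. PB called none of the 9 (0 higher and 0 lower, beside 2.66% and 3.76% of all loci). An unadjusted limma p under 0.05 was found for 3 members. Log2 differences were above 0 for 9 of 9, from 0.00 (IRF7) to 0.26 (OAS2, adjusted p 0.107), with the median locus at -0.0050. The same libraries give all 9 values, and the matching shares of all loci were not counted. OAS1 was at 0.26 (adjusted p 0.139) and MX1 at 0.23 (adjusted p 0.183). Neither edgeR nor DESeq2, run on whole reads of the WT libraries, called a member.

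CITCO lowered OAS2 in WT cells 1.43-fold (log2 -0.51, SE 0.09, limma adjusted p 0.00390). It was the only call, 0 members being higher and 1 lower beside 1.18% and 1.02% of all loci. DESeq2 also called it, and edgeR did not (adjusted p 0.0618). The call was lost without WT CITCO replicate 2 (adjusted p 0.0747) and in a fit of the 4 compared libraries alone (adjusted p 0.160). Log2 differences were below 0 for 7 of 9 members, with the median locus at -0.0073, and 5 had an unadjusted p under 0.05. These members share their libraries, and the matching shares of all loci were not counted. IFIT2 stood at -0.37 (adjusted p 0.0999), IFIT1 at -0.24 (adjusted p 0.275), OAS1 at -0.23 (adjusted p 0.248) and MX1 at -0.22 (adjusted p 0.245). The authors' deposited table lists OAS2 at log2 -0.55 (FDR 5.46e-05) and IFIT2 at -0.39 (FDR 0.0172).

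The drugs were then set against each other. In WT cells 5 of 9 members were higher under PB than under CITCO and 0 lower, beside 2.65% and 3.63% of all loci. OAS2 was 1.72-fold higher (log2 0.78, SE 0.09, limma adjusted p 3.45e-05). IFIT2 was 1.40-fold higher (adjusted p 0.0114), OAS1 1.40-fold (adjusted p 0.00441), MX1 1.37-fold (adjusted p 0.00656) and IFIT1 1.31-fold (adjusted p 0.0326). The libraries of the 2 treatments did not overlap for any of these 5 genes. With 2 libraries per group this adds little to the calls, and the share of all loci without overlap was not counted. IFIT3 was at log2 0.25 (adjusted p 0.131), also without overlap, and ISG15, OAS3 and IRF7 overlapped. The median over the members was 0.39, beside -0.0026 over all loci. These 3 drug contrasts share libraries, so they are not independent of each other. The members were also chosen with earlier results of these data known.

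The count of 5 depended on single libraries: 3 members were called without WT PB replicate 1, 2 without WT CITCO replicate 1 and 3 without WT CITCO replicate 2. OAS2 was called in each of those fits. The count of 5 was 4 with edgeR and 5 with DESeq2. IFIT1 was the least firm, with adjusted p from 0.0678 to 0.276 when any 1 of the 4 compared libraries was left out and 0.0683 with edgeR.

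**Figure D4:**
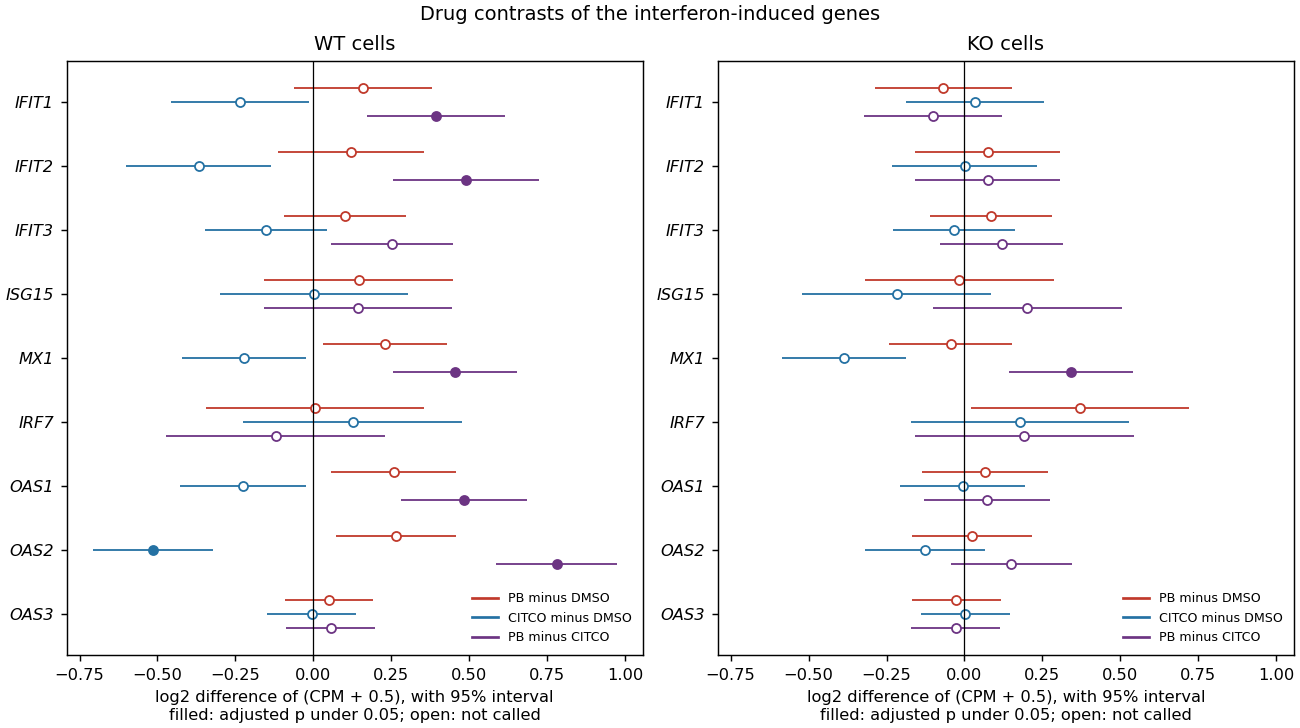
Log2 differences of each gene between treatments in WT (left) and KO cells (right), with 95% intervals, where filled points were called. In WT cells PB minus CITCO is called for 5 genes and largest for OAS2 (0.78), and in KO cells for MX1 alone (0.34).

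In KO cells PB called no member (0 higher and 0 lower, beside 3.87% and 3.09% of all loci), with IRF7 at log2 0.37 (adjusted p 0.244) the only one with an unadjusted p under 0.05. CITCO called none either (0 and 0, beside 0.386% and 0.424%). MX1 had the only unadjusted p under 0.05 there (log2 -0.39, adjusted p 0.0680). Leaving out WT DMSO replicate 1 or 2, which changes only the estimated spread, brought it to 0.0461 and 0.0451, a fit of the 4 compared libraries alone gave 0.0231, and the authors' deposited table lists it at an FDR of 0.0118. MX1 was also the 1 member higher under PB than under CITCO in KO cells (1.27-fold, adjusted p 0.0401), with 0 lower, beside 3.57% and 1.91% of all loci. That call was lost without 5 of the 6 KO libraries in turn, the exception being KO PB replicate 2 (adjusted p 0.0557 without KO DMSO replicate 2, 0.0561 without KO DMSO replicate 1, 0.145 and 0.228 without KO CITCO replicate 1 or 2, and 0.517 without KO PB replicate 1).

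Whether the drug contrasts differed between genotypes was tested directly. The difference between the PB responses of KO and WT cells called no member (0 higher and 0 lower, beside 0.798% and 0.209% of all loci), and 0 had an unadjusted p under 0.05. For the CITCO response the counts were also 0 and 0 (beside 0.108% and 0.228%), with OAS2 at log2 0.39 (adjusted p 0.223) and IFIT2 at 0.37 (adjusted p 0.352) the 2 members with an unadjusted p under 0.05. The PB minus CITCO contrast, whose comparison between genotypes was added after the data were seen, was smaller in KO than in WT cells for OAS2 (log2 -0.63, SE 0.13, 95% interval from -0.90 to -0.36, limma adjusted p 0.0183). OAS2 was the only call, with 0 members higher and 1 lower beside 0.994% and 0.393% of all loci. It was lost without any 1 of 6 libraries (adjusted p 0.0649 to 0.117), those being WT PB replicate 1, WT CITCO replicate 2 and all KO libraries of the 2 drugs. IFIT1 (-0.49, adjusted p 0.130), IFIT2 (-0.42, adjusted p 0.262) and OAS1 (-0.41, adjusted p 0.181) had an unadjusted p under 0.05 in the same direction. The members share their libraries, and the shares of all loci with an unadjusted p under 0.05 were not counted for these contrasts. MX1, the member called within KO cells, was at -0.11 with a 95% interval from -0.39 to 0.17 (adjusted p 0.785).

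How far the members varied together was described by each one's correlation with the mean of the other 8 over the 12 libraries, each library taken relative to its genotype's mean. These points share libraries and scaling. The highest values were those of OAS2 (r = 0.846), OAS1 (0.830), IFIT2 (0.829) and MX1 (0.814), then IFIT3 (0.721), IFIT1 (0.615) and ISG15 (0.432). The lowest values were those of OAS3 (0.201) and IRF7 (-0.030). Within a genotype, over 6 libraries, some differed from these: IFIT1 had 0.773 in WT and -0.025 in KO cells, OAS3 0.461 and -0.453, and ISG15 0.337 and 0.786. Among 11604 other loci of at least 5 CPM, the pattern of the member mean was matched best by USP54 (r = 0.972, 12 libraries), then NBPF14 (0.931), GOSR1 (0.929), DNAH1 (0.921) and SLC10A1 (0.915). SLC10A1, the hepatocyte bile acid transporter and entry receptor of hepatitis B virus, had 36.5 CPM in WT cells under DMSO, 46.7 under PB and 31.3 under CITCO, and 8.52, 10.4 and 7.99 CPM in KO cells.

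The rest of the pathway was read from lists of genes by role. The 21 interferon genes listed, IRF9, RSAD2 and IL10RB are not analysed here. Of 5 receptor genes tested in KO against WT under DMSO, IFNGR1 was higher (log2 0.33) and IFNAR2 lower (log2 -0.22), a value of 0.05 with library totals. IFNAR1, the other chain of the type I receptor, was at 67.8 CPM in KO against 66.9 CPM in WT (adjusted p 0.789), and IFNLR1, the type III receptor, was at 5.87 CPM in KO against 6.45 CPM in WT (adjusted p 0.357). With library totals, 3 receptor genes were called higher and 0 lower. Of all loci, 28.3% were called higher and 29.4% lower in KO cells under DMSO, and 52.5% and 14.6% with library totals.

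Of 6 kinase and STAT genes, 2 were higher in KO cells under DMSO and 2 lower, beside 28.3% and 29.4% of all loci. With library totals 6 were higher and 0 lower, beside 52.5% and 14.6%. STAT3, which acts downstream of interleukin-6, was 1.99-fold higher (462 against 232 CPM, adjusted p 5.60e-14), and STAT2 was 1.30-fold higher (113 against 86.5 CPM, adjusted p 1.53e-05). JAK1, the kinase shared by the interferon receptors, was at log2 -0.14 (175 against 192 CPM, adjusted p 0.0128) and changed sign with library totals (log2 0.13).

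Among 8 feedback inhibitors, 4 were higher in KO cells under DMSO and 3 lower, beside 28.3% and 29.4% of all loci. With library totals 5 were higher and 2 lower, beside 52.5% and 14.6%. USP18, which removes ISG15 from its targets and blocks the type I receptor, fell with the lower members, from 15.5 CPM (WT) to 5.14 CPM (KO) under DMSO (log2 -1.51, SE 0.12, adjusted p 3.24e-09). It was also lower under PB (log2 -1.45) and under CITCO (log2 -1.26). PIAS1, a SUMO ligase that damps cytokine signalling, was 1.81-fold lower, whereas CISH and SOCS3, which damp cytokine receptors, were 1.89-fold and 1.32-fold higher.

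Of 13 nucleic acid sensing genes, 3 were higher in KO cells under DMSO, 3 lower and 7 not called, beside 28.3% higher and 29.4% lower of all loci. With library totals 9 were higher and 1 lower, beside 52.5% and 14.6%. TMEM173 (STING), the adaptor of cytosolic DNA sensing, rose from 2.25 CPM (WT) to 15.9 CPM (KO) (5.95-fold, adjusted p 2.43e-10), and IFI16, a DNA sensor, from 34.9 to 72.6 CPM (2.07-fold). MYD88 and MAVS, adaptors of Toll-like receptors and of RNA sensing, were 1.39-fold and 1.25-fold lower, and the call of MAVS was lost with library totals (log2 -0.06, adjusted p 0.211). In WT cells PB raised TRIM25, a ubiquitin ligase of RNA sensing, from 93.5 to 113 CPM (log2 0.27, adjusted p 0.000476).

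Of 7 other interferon regulatory factors, 2 were higher and 2 lower under DMSO, beside 28.3% and 29.4% of all loci. With library totals 5 were higher and 1 lower, beside 52.5% and 14.6%. IRF8 (1.85-fold) and IRF1 (1.24-fold), activators of interferon-gamma targets, were lower in KO cells, and the call of IRF1 was lost with library totals (log2 -0.05, adjusted p 0.545). Of 4 genes that attach ISG15, HERC5, the ligase, was 1.54-fold higher and UBE2L6 1.18-fold higher in KO cells, and HERC6 and UBA7 were at log2 -0.34 and -0.19, which became 2 higher and 0 lower with library totals. HERC5 was also raised by PB in WT cells (5.76 to 8.52 CPM, adjusted p 0.0361). Of 4 genes around 2-5A, 2 were higher, ABCE1 (an inhibitor of RNase L) and PDE12 (which degrades 2-5A), and 0 lower, and 3 and 0 with library totals. The shares of all loci given above stand beside the ISG15 and 2-5A counts too.

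Of 38 other antiviral effectors tested, 11 were higher in KO cells under DMSO and 9 lower, with a median log2 of 0.06, beside 28.3% and 29.4% of all loci. With library totals the split was 26 higher and 2 lower, beside 52.5% and 14.6%. IFITM2 (1.54-fold) and TRIM22 (1.52-fold), which restrict viral entry and transcription, were higher, and IFI44 (1.53-fold) and TNFSF10 (1.38-fold), an apoptosis ligand, were lower. In PB against CITCO in WT cells 7 of these 38 were higher and 2 lower, with a median of 0.12, beside 2.65% and 3.63% of all loci. Those higher were IFI44L (3.47 against 1.23 CPM, log2 1.20, adjusted p 0.000145), MX2 (log2 0.76), EPSTI1 (0.51), IFI27 (0.49), XAF1 (0.37), DDX60 (0.29) and TNFSF10 (0.26). IFITM2 and IFITM3 were lower (-0.23 and -0.22). With library totals the split was 3 higher and 2 lower, beside 1.58% and 5.997%. CITCO against DMSO in WT cells called IFI44L (log2 -0.82) and PLSCR1 (-0.29) lower and 0 higher, beside 1.02% lower and 1.18% higher of all loci. Dependence of these calls on single libraries was not tested.

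Of 12 targets that lean to interferon-gamma, 2 were higher in KO cells under DMSO and 7 lower, with a median log2 of -0.39, beside 28.3% and 29.4% of all loci. With library totals 3 were higher and 5 lower, beside 52.5% and 14.6%. APOL1, the trypanosome lytic factor secreted by liver, fell from 198 to 45.8 CPM (4.29-fold), APOL2 from 79.0 to 30.1 CPM (2.60-fold) and the chemokine gene CXCL10 from 5.98 to 1.11 CPM (4.04-fold). SERPING1, which encodes the complement C1 inhibitor, was 1.47-fold higher. CXCL10 was also lowered by CITCO in WT cells (log2 -0.66, adjusted p 0.0272). Of 13 antigen presentation genes, 4 were higher in KO cells and 4 lower, and 9 and 4 with library totals, beside the same shares of all loci. NLRC5, the activator of class I genes, and HLA-C were 1.80-fold and 1.49-fold higher, whereas PSME2 and PSME1, which encode proteasome activator subunits, were 1.69-fold and 1.46-fold lower.

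**Figure D5:**
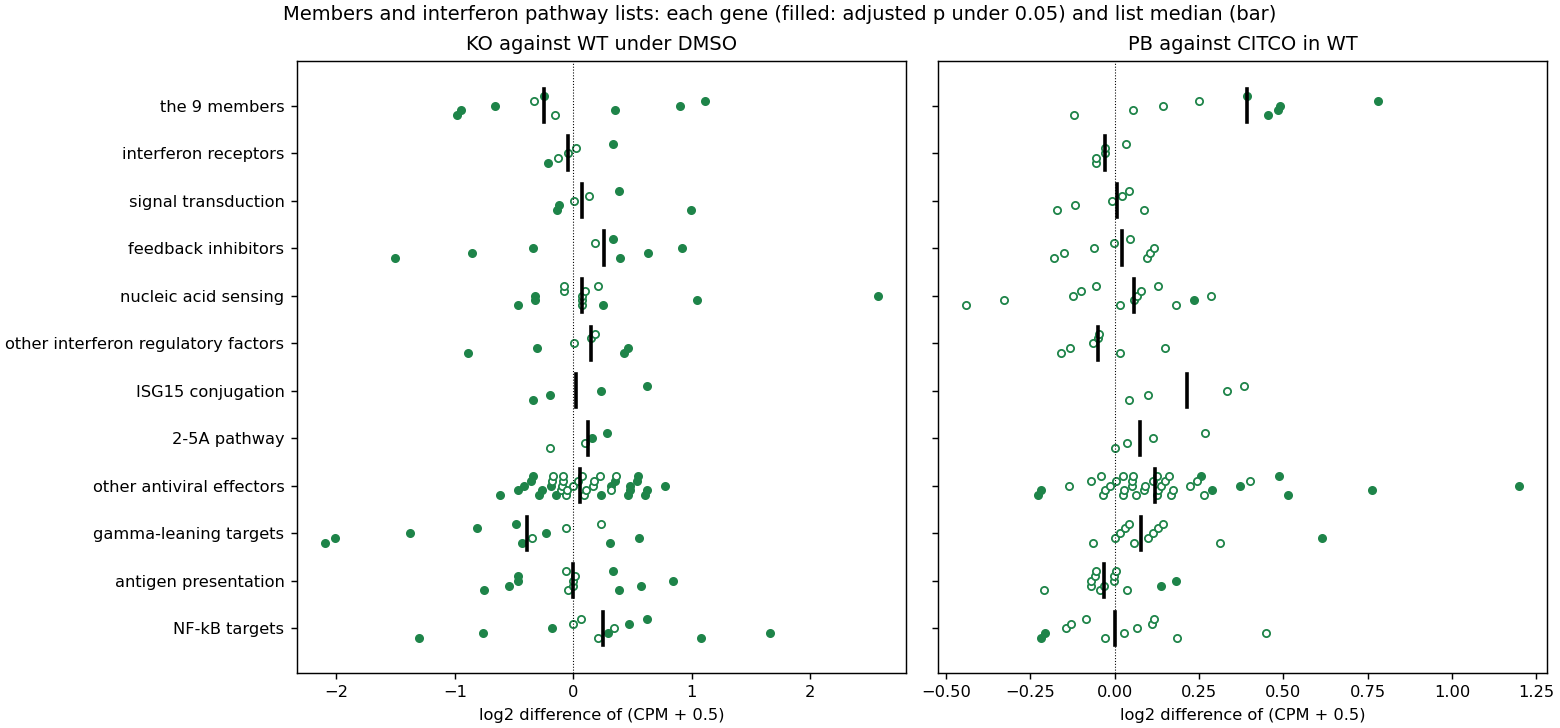
Log2 differences of the members and of 11 pathway lists in KO against WT under DMSO (left) and PB against CITCO in WT cells (right), 1 point per gene with filled points called, and a bar at each list's median. The members spread to both sides of 0 on the left, and on the right their median (0.39) lies furthest from 0. The members and the lists were chosen with earlier results of these data known, and the lists differ in size and role.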

How the data were processed

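The authors deposited 1 table of normalized signal for 15822 loci and 12 libraries, called CPM in its name. The deposited values are not plain CPM, since each WT library summed to between 1.07 and 1.11 times 1e6 and each KO library to between 0.900 and 0.935 times 1e6. Per the submitters' processing notes, the tools were edgeR 2.12, Cuffdiff 2.1.1, Cufflinks 2.1.1, TopHat2 2.0.10 and Bowtie 1.0.0, given with no role or order, and 2 genome builds are named. RNA came from a column kit and went into standard Illumina libraries, per the labels' protocols. Counting by strand is not given in the sources used here. In each library 100% of values were whole multiples, within 0.001 reads, of the value of 1 read. The plan had assumed plain normalized values, which this did not change.

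The authors also deposited 7 comparison tables for 14161 loci with log2 fold changes, log2 mean CPM, a likelihood ratio score, p-values and FDR. Those named KO against WT under PB and CITCO hold the difference of the drug responses and were not used.

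From the signal, log2(CPM + 0.5) was fitted with limma 3.58.1 in R 4.3.3 (trended prior variance, 12 libraries, 6 group means, 6 residual degrees of freedom), for the 15792 loci that reached 1 CPM in 2 or more libraries. Folds on this scale understate changes of low genes. The script was tested on simulated data with the same setting of the spread at every locus, which checks the code and not the p-values of these libraries. Alternatives were other pseudocounts (0.1 and 1), filters and scalings, a constant prior variance, fewer libraries, a replicate block, and edgeR 4.0.16 and DESeq2 1.42.0 on whole reads of the 6 WT libraries. On those reads edgeR called 277 loci higher and 277 lower for PB against DMSO, 84 and 53 for CITCO against DMSO, and 240 and 260 for PB against CITCO. There were 12 comparisons, 1 of them added after the data were seen. The members and all lists were chosen with earlier results of these data known. The rule for named genes took all members, and from each list up to 3 called genes per direction with the largest change in KO against WT under DMSO (mean of at least 1 CPM in 1 group) and up to 2 per direction called in a drug comparison. It also took STAT2, IRF9, IFNAR1, IFNAR2, IFNLR1, IFNB1, IFNL1, USP18 and NR1I3, the 5 loci most like the member mean, and the nearest gene on each side of a member. Some genes that the rule takes are not reported here. Other genes of a list are named where a count is broken down, and were chosen after their values were seen.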

Additional observations from a re-analysis of the deposited data

Results flagged for a closer look

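Differences between the genotypes in a drug contrast were called by limma for OAS2 and for 5 of 123 genes in the pathway lists. The shares of all loci were 0.798% higher and 0.209% lower for the PB response, and 0.994% and 0.393% for PB minus CITCO. The latter comparison was added after the data were seen, and its OAS2 call depended on single libraries, as given above. For the 5 list genes, dependence on single libraries was not tested. For OAS2, the PB minus CITCO contrast in KO less that in WT was log2 -0.63 (adjusted p 0.0183): group means were 9.88 and 5.55 CPM under PB and CITCO in WT, and 18.5 and 16.6 CPM in KO cells. For IFI44L, an effector of unknown mechanism, the same difference was log2 -1.28 (adjusted p 0.00583), with 3.47 and 1.23 CPM in WT and 2.85 and 3.05 CPM in KO cells. IFITM3, which restricts viral entry, differed the other way (log2 0.29, adjusted p 0.0443), with 127 and 148 CPM under PB and CITCO in WT and 203 and 193 CPM in KO cells. So did ICAM1, the adhesion receptor of leukocytes (log2 0.55, adjusted p 0.000616), and its PB response also differed (log2 0.35, adjusted p 0.0281): WT libraries fell from 40.5 and 39.8 CPM under DMSO to 33.8 and 34.0 CPM under PB, while KO libraries had 50.5 and 48.2 CPM under DMSO and 54.3 and 52.7 CPM under PB. The PB response of APOL1 differed by log2 0.45 (adjusted p 0.00181), with 198 and 155 CPM in WT and 45.8 and 49.0 CPM in KO cells under DMSO and PB. For BIRC3, an inhibitor of apoptosis, it differed by log2 0.31 (adjusted p 0.0248), with 92.4 and 71.9 CPM in WT and 196 and 190 CPM in KO cells.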

How the results depend on the processing

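Counts of called members that changed by over 1.5 times were these. With each library scaled to its own total, KO against WT under CITCO had 5 called members in place of 8, and PB against CITCO in KO had 0 in place of 1. With a constant prior variance, PB against CITCO had 3 in place of 5 in WT and 0 in place of 1 in KO, and the added difference of that contrast between genotypes had 0 in place of 1. With only the libraries compared, CITCO against DMSO had 0 in place of 1 in WT and 1 in place of 0 in KO, and with edgeR it had 0 in WT. Leaving out 1 library at a time gave 0 to 1 called members for CITCO against DMSO in WT and in KO, PB against CITCO in KO and the added difference, and 2 to 5 for PB against CITCO in WT. It gave 6 to 8, 5 to 7 and 7 to 8 for KO against WT under DMSO, PB and CITCO. For the member values reported, 414 comparisons with other settings kept direction and side of the threshold, 16 lost and 2 gained a call and 4 changed sign; with 1 library left out these were 576, 30, 5 and 1. The values that changed sign were IFIT3 in KO against WT under DMSO, PB and CITCO (0.101, 0.0728 and 0.205) and MX1 under DMSO (0.0089), all with library totals, and MX1 in the added difference, which ran from -0.26 to 0.036 with 1 library left out and was above 0 without KO PB replicate 2. Of the list counts, 412 stayed within 1.5 times and 50 did not. Replicate numbers were not taken to pair the samples, since deviations of same-numbered libraries correlated above 0.1 in only 4 of 15 pairs of groups (r 0.288 for WT DMSO with WT PB, 0.226 for WT DMSO with KO DMSO, 0.180 and 0.113 for KO DMSO with KO PB and KO CITCO, the others down to -0.078). A shared source in those 4 was not tested. With the replicate block no count of called members moved by over 1.5 times: it stayed at 7, 7 and 8 for KO against WT under DMSO, PB and CITCO, 5 for PB against CITCO in WT and 1 for CITCO against DMSO in WT. Over all loci, PB against DMSO in WT had 420 higher and 594 lower, 277 and 277 with edgeR, and 338 and 331 with DESeq2. CITCO against DMSO had 187 and 161, 84 and 53, and 127 and 79, and PB against CITCO 419 and 573, 240 and 260, and 303 and 329. Library totals turned the split for PB against CITCO to 250 higher and 947 lower in WT, and from 563 and 302 to 388 and 596 in KO. They turned CITCO against DMSO in WT to 252 and 102, and PB against DMSO in KO from 611 and 488 to 480 and 707. edgeR and DESeq2 were not run on comparisons with KO libraries. With 2 libraries per group, no sample could be tested as an outlier.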

Other observations

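Targets of NF-kB, the factor that drives inflammatory genes beside the interferon programme, included genes called in either direction. Of 12 tested, 5 were higher in KO cells under DMSO and 3 lower by limma, with a median log2 of 0.25, beside 28.3% and 29.4% of all loci. With library totals 8 were higher and 2 lower, beside 52.5% and 14.6%. IL6, the cytokine that drives the acute phase response, was at 1.40 CPM in KO against 0.0970 CPM in WT (log2 1.66, adjusted p 4.93e-07). BIRC3 was 2.11-fold higher in KO cells (adjusted p 8.52e-13), and RELB, a subunit of NF-kB, 1.54-fold higher (adjusted p 0.000151). The monocyte chemokine CCL2 was 2.47-fold lower (adjusted p 6.97e-08) and the neutrophil chemokine CXCL2 1.70-fold lower (adjusted p 1.35e-07). In KO cells CXCL2 was also lower under PB than under CITCO, at 12.6 against 18.1 CPM (log2 -0.51, adjusted p 0.000317).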
